A study of Mus musculus with 12 samples.

Results

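Transcripts of the ATF4 amino acid response were followed in a mouse neuroblastoma cell line, N2a, treated with brain-derived extracellular vesicles (BDEVs), which are small particles bounded by a membrane and released by cells. The genes were 40 of the 24318 gene entries in each deposited table, chosen by name. Among them were ATF4 and its partners and targets, and genes of amino acid transport. Genes of amino acid synthesis outside the serine and folate pathways and a part of the cytosolic tRNA synthetases made up the rest. The 40 genes comprised 7 transcription factors and feedback regulators, 7 stress effectors and secreted factors, 8 transporters, 5 synthesis enzymes and 13 synthetases. All 40 were found in both tables. The 12 polyA RNA libraries fell into 3 groups of 4: cells given BDEVs of the SE group (SE-BDEV), cells given BDEVs of the CON group (CON-BDEV) and cells given Vehicle. The title of the series gives SE as status epilepticus, a long seizure. CON is not spelled out in the labels, which also give no dose, time or animal. All groups share the one cell line, and no untreated cells without Vehicle were analysed here. Nothing in the labels tells whether a group's 4 libraries are separate cultures or separate vesicle preparations. The p-values therefore cover the spread between these libraries alone, and that spread may be technical.

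When amino acids run short or unfolded proteins build up, kinases such as GCN2 and PERK phosphorylate the translation factor eIF2. General translation then slows while the mRNA of the transcription factor ATF4 is translated more. ATF4 acts as a dimer with C/EBP-family partners on composite C/EBP-ATF response elements in genes that import and make amino acids, charge tRNAs and, through CHOP (the product of Ddit3), respond to lasting stress. ATF4 is regulated in large part by translation, which mRNA levels do not show.

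The promoter stretches of 5 of these genes are shown because they hold the element through which ATF4 acts, and because the expression of all 5 is described further on. Each runs 5′ to 3′ on the strand of the gene, in RefSeq coordinates of GRCm38.p6, and ends before the annotated start. Capitals mark each match to TGATGNAA or to its reverse complement TTNCATCA.
Chac1, chr2:119351023-119351082, plus strand: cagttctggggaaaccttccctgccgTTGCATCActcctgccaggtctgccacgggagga
Slc7a11, chr3:50443627-50443705, minus strand: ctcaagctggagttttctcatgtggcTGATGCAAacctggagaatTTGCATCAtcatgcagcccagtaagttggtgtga
Asns, chr6:7693210-7693258, minus strand: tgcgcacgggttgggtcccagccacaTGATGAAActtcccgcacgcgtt
Pycr1, chr11:120643818-120643877, minus strand: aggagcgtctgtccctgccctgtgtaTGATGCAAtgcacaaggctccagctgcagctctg
Gars, chr6:55037945-55038000, plus strand: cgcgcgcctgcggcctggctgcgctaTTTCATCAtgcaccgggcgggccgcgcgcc

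Slc7a11 holds a pair of matches facing opposite ways, with first bases at −66 and −47 from the start. In the others the first base of the match lies at −193 (Chac1), −103 (Pycr1), −30 (Gars) and −23 (Asns). A window of 250 bases before to 50 bases after the start was found in RefSeq for 30 of the 40 genes, and 13 of these 30 (43.3%) held the element on either strand. The same letters were in 1219 of 27025 gene windows overall (4.51%) and in 236 of 8676 windows of genes that entered the expression tests (2.72%). The 40 genes were chosen by name for the ATF4 pathway, which can itself raise their share, so the shares are descriptions only. Among the genes described here, 2 of 7 regulators, 2 of 6 stress effectors, 2 of 5 transporters, 2 of 4 synthesis enzymes and 5 of 8 synthetases with a window held it. The other 8 holders were Nupr1, Trib3, Vldlr, Slc1a4, Aars, Iars, Tars and Yars, of which Trib3, Iars and Yars had it only downstream of the start and Slc1a4 across it. A match is a run of letters, not a measured binding site.

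Expression was given by the authors as FPKM, which scales a gene's fragments by transcript length and by library size. Levels are therefore per length and can be set beside each other. Of the 40 genes, 39 averaged at least 1 FPKM and entered the tests. The exception was Vldlr, a lipoprotein receptor, which lay between 0.00706 and 0.032 FPKM over the 12 libraries. Log2 differences and fold changes are given on the log2(FPKM + 1) scale, fold changes with their standard error after ±. The SE-BDEV libraries held about 13000000 to 15600000 fragments each, those of CON-BDEV 12800000 to 14500000 and the Vehicle libraries 15100000 to 16500000, as estimated from the smallest FPKM steps. Summed markers of noradrenergic neuroblastoma were present in every library, at 603 to 647 FPKM in SE-BDEV, 611 to 646 FPKM in CON-BDEV and 529 to 561 FPKM in Vehicle. Markers of brain cell types that vesicle preparations could carry were lower and differed by type. Summed oligodendrocyte markers were at 16.8 to 19.9, 17 to 18.7 and 17.3 to 18.9 FPKM in SE-BDEV, CON-BDEV and Vehicle. Those of forebrain neurons were at 9.43 to 11.7, 9.34 to 10.6 and 10.1 to 10.9 FPKM in the same order. Summed astrocyte markers were at 1.51 to 2.09, 1.52 to 2.08 and 2.75 to 2.95 FPKM in SE-BDEV, CON-BDEV and Vehicle, and summed microglial markers were at most 2.47 FPKM with Trem2 at 0. Their part in the results was not tested.

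The clearest feature of the module was how far it moved between single libraries of the vesicle groups. In SE-BDEV, replicate 2 was the highest of the 4 libraries for 37 of the 39 genes, against 28.9% of all 11312 genes tested. In CON-BDEV, replicate 2 was likewise the highest for 34 of 39, against 27.4% of all genes. Replicate 3 was the lowest SE-BDEV library for 29 of 39 genes (27.2% of all genes), and replicate 1 for another 9 (21% of all genes). CON-BDEV replicate 1 was the lowest of its group for 37 of 39 (26.4% of all genes). In these bulk libraries, a change in the number of cells that express a gene and a change in RNA per cell cannot be told apart.

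Set against the range of the 4 Vehicle libraries, 33 of 39 genes lay above it in SE-BDEV replicate 2 and 23 of 39 in CON-BDEV replicate 2, where 32.4% and 28.4% of all genes did. By contrast 35 and 36 of 39 lay below that range in SE-BDEV replicates 1 and 3, and 38 of 39 in CON-BDEV replicate 1, where 23.3%, 30.3% and 24.9% of all genes did. SE-BDEV replicate 4 had 6 of 39 genes above and 25 below, where 31.8% and 18.9% of all genes were. CON-BDEV replicate 3 had 9 above and 18 below (25.1% and 26.1% of all genes), and replicate 4 had 13 above and 16 below (31.8% and 27.5%). The median gene differed from its Vehicle mean by −0.21, 0.18, −0.30 and −0.06 in SE-BDEV replicates 1 to 4, and by −0.27, 0.07, −0.04 and −0.01 in CON-BDEV replicates 1 to 4. The median over all genes stayed between −0.00 and 0.02 in the same libraries. The labels do not say that libraries with the same number share a batch or a day.

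**Figure D1:**
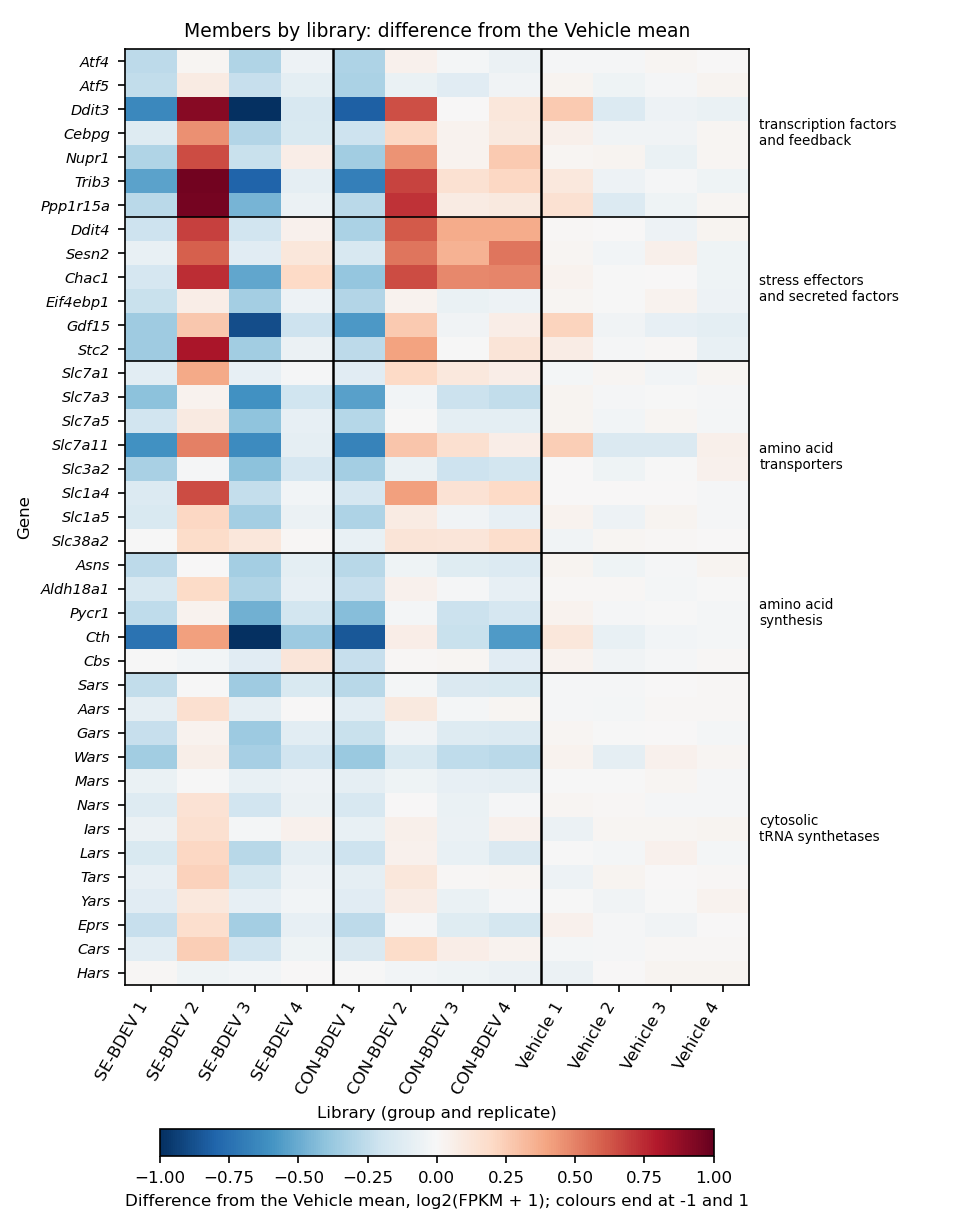
Difference of each gene (vertical axis, 39 tested genes by role) from its Vehicle mean in each of the 12 libraries (horizontal axis), as colour on the log2(FPKM + 1) scale. Replicate 2 stands out as high in both vesicle groups, SE-BDEV replicates 1 and 3 and CON-BDEV replicate 1 as low, and the 4 Vehicle libraries show little colour.

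The spread within a group was therefore wider in vesicle-treated cells. The median SD of the 39 genes over 4 libraries was 0.207 for SE-BDEV, 0.131 for CON-BDEV and 0.0334 for Vehicle. Over all genes tested the medians were 0.0898, 0.0739 and 0.0565 in the same groups. The 39 genes were thus the more variable in vesicle-treated cells and the less variable in Vehicle cells. All genes tested include those down to a mean of 1 FPKM, and spread was not compared between genes of like FPKM. In each vesicle group 38 of 39 genes (97.4%) had a larger SD than in Vehicle, as did 73.7% of all genes in SE-BDEV and 65% in CON-BDEV. The exception in both groups was Hars, the histidyl-tRNA synthetase gene. The highest library exceeded the lowest at least 1.5-fold for 15 of 39 genes in SE-BDEV (8.8% of all genes), for 12 of 39 in CON-BDEV (6.67%) and for 0 of 39 in Vehicle (4.38%). None of the 13 synthetases reached that ratio in any group. These are descriptions of the libraries, and equality of the group variances was not tested. Whether culture, vesicle preparation or sample handling differed between those libraries is not given in the sources used here and was not tested. The library names number the vesicle libraries first, SE-BDEV and CON-BDEV alternating by replicate, and the Vehicle libraries last. What this order stands for is not given, and its part in the spread was not tested.

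**Figure D2:**
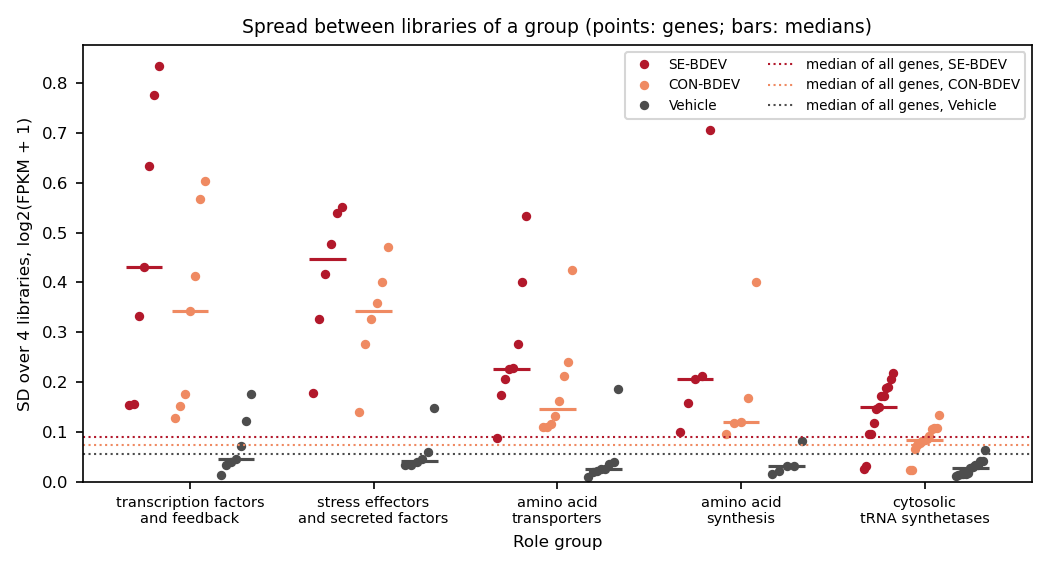
Standard deviation over the 4 libraries of a group (vertical axis, log2(FPKM + 1)) for each gene, by role group (horizontal axis) and treatment, with bars at the medians and dotted lines at the medians of all genes. Regulators and stress effectors had the widest spread, with medians of 0.43 and 0.447 in SE-BDEV and 0.342 for both in CON-BDEV, and synthetases the narrowest at 0.15 and 0.0838.

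Genes with and without the response element had median SDs close to each other. The median SD of the 12 tested holders was 0.192 for SE-BDEV, 0.131 for CON-BDEV and 0.033 for Vehicle. It was 0.219, 0.131 and 0.0334 in the same groups for the 17 tested genes whose window lacked it. The holders included 5 synthetases, the role group with the narrowest spread, so element and role cannot be told apart in these medians. Whether the element bears on the spread was not tested.

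Among the regulators, Atf4 itself (mm9, chromosome 15, 80085614 to 80087975) was the most abundant. It had 562, 681, 546 and 649.7 FPKM in SE-BDEV replicates 1 to 4, 543, 691, 662 and 646 FPKM in CON-BDEV replicates 1 to 4, and 666, 668, 679.7 and 676 FPKM in Vehicle replicates 1 to 4. The Vehicle libraries lay within a 1.02-fold range, and the vesicle libraries fell on both sides of it. Ddit3 encodes the stress factor CHOP. It had 102, 301, 78.7 and 143 FPKM in SE-BDEV replicates 1 to 4, 90.6, 251, 161 and 173 FPKM in CON-BDEV, and 192, 145, 154 and 153 FPKM in Vehicle. Its 3.82-fold range in SE-BDEV and 2.77-fold range in CON-BDEV were the widest of the 39 genes, against a 1.32-fold range in Vehicle. The deposited locus of Ddit3 (chromosome 10, 126727849 to 126748842) is shared with Mars, so the split of fragments between these neighbours is uncertain.

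Trib3 encodes a pseudokinase that binds ATF4 and dampens its activity (chromosome 2, 152163161 to 152169796). Its FPKM values were 48.8, 139.8, 40.5 and 67 in SE-BDEV replicates 1 to 4, 43.9, 115, 79.5 and 82.5 in CON-BDEV, and 76.8, 68.8, 70.6 and 69.3 in Vehicle. Like Ddit3 it was highest in replicate 2 of each vesicle group and lowest in SE-BDEV replicate 3 and CON-BDEV replicate 1. Ppp1r15a encodes GADD34, the phosphatase subunit that reverses eIF2 phosphorylation (chromosome 7, 52728933 to 52781638, a locus deposited together with Dhdh, Nucb1 and Tulp2 and therefore uncertain). It had 34.6, 82.5, 30.2 and 40.2 FPKM in SE-BDEV, 34.6, 69.8, 44.3 and 44.9 FPKM in CON-BDEV, and 46.8, 38.1, 40.8 and 42.5 FPKM in Vehicle. The remaining regulators, the bZIP factor gene Atf5, the C/EBP partner gene Cebpg and the stress-induced chromatin regulator gene Nupr1, were also highest in replicate 2 of SE-BDEV, at 126, 32.6 and 285 FPKM. Atf5 was at 115 to 121 FPKM in Vehicle, Cebpg at 22.9 to 24.3 FPKM and Nupr1 at 173 to 185 FPKM. The Atf5 locus is shared with Il4i1, Nup62 and Tbc1d17, which leaves its value uncertain.

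None of the 7 regulators passed the limma test in either comparison with Vehicle. In each, 1 of 7 had an unadjusted p under 0.05, where 14.8% of all genes did in SE-BDEV and 19.1% in CON-BDEV. Atf4 gave −0.15 ± 0.06 (limma adjusted p = 0.313) for SE-BDEV against Vehicle and −0.09 ± 0.06 (adjusted p = 0.474) for CON-BDEV against Vehicle. Ddit3 gave −0.23 ± 0.32 (limma adjusted p = 0.785) and −0.01 ± 0.24 (adjusted p = 0.986) in the same order. The 95% interval for Ddit3 in SE-BDEV against Vehicle ran from −0.94 to 0.485, and effects inside it could not be told from 0 at this spread. Leaving out SE-BDEV replicate 3 turned the Ddit3 value to 0.03, and leaving out replicate 2 moved it to −0.61. Trib3, at −0.12 ± 0.30 in SE-BDEV and 0.09 ± 0.21 in CON-BDEV, turned sign in the same way when 1 library was left out. These fold changes compare means of log values, so at a wide spread their sign can differ from that of the mean FPKM. Trib3 averaged 74.02 FPKM in SE-BDEV and 71.37 FPKM in Vehicle, and Ddit3 168.9 FPKM in CON-BDEV and 160.9 FPKM in Vehicle, although both fold changes were below 0.

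The stress effectors had median differences from the Vehicle mean of −0.21, 0.64, −0.34 and −0.01 in SE-BDEV replicates 1 to 4, and of −0.30, 0.47, 0.17 and 0.25 in CON-BDEV replicates 1 to 4. Thus 1 SE-BDEV library and 3 CON-BDEV libraries had a median above Vehicle. Chac1 encodes an enzyme that breaks down glutathione (chromosome 2, 119176978 to 119180062). It had 58, 109.7, 45.2 and 74.9 FPKM in SE-BDEV replicates 1 to 4, 49.5, 103, 91.2 and 91.7 FPKM in CON-BDEV, and 67, 65.2, 65.5 and 63.2 FPKM in Vehicle. Sesn2 encodes sestrin 2, a leucine-binding inhibitor of mTORC1 (chromosome 4, 132048722 to 132066371). Its values were 26.8, 43.3, 26 and 30.7 FPKM in SE-BDEV, 25.3, 41.4, 36.3 and 41.4 FPKM in CON-BDEV, and 28.8, 27.7, 29.4 and 27.4 FPKM in Vehicle. For both genes 3 of 4 CON-BDEV libraries lay above every Vehicle library and replicate 1 below them all. Gdf15 encodes a secreted stress hormone (chromosome 8, 73153293 to 73155534). It had 40.9, 63.4, 27.8 and 45.3 FPKM in SE-BDEV, 34.8, 63, 51 and 55 FPKM in CON-BDEV, and 61.2, 51, 49.4 and 48.9 FPKM in Vehicle. Ddit4, whose product REDD1 restrains mTORC1, had 52.5, 101, 85.1 and 84.9 FPKM in CON-BDEV replicates 1 to 4 and 63.3 to 66.9 FPKM in Vehicle. Stc2, a secreted glycoprotein gene, had 8.5, 20.4, 8.56 and 10.7 FPKM in SE-BDEV replicates 1 to 4, against 10.5 to 11.8 FPKM in Vehicle. Eif4ebp1, a translation repressor gene, ranged from 262 to 347 FPKM over the 12 libraries.

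No stress effector passed the limma test. The unadjusted p against Vehicle was under 0.05 for 0 of 6 in SE-BDEV (14.8% of all genes) and 1 of 6 in CON-BDEV (19.1%). In CON-BDEV against Vehicle, Sesn2 gave 0.31 ± 0.13 (adjusted p = 0.204), Chac1 gave 0.31 ± 0.18 (adjusted p = 0.378) and Ddit4 gave 0.26 ± 0.15 (limma adjusted p = 0.382). In SE-BDEV against Vehicle the same genes gave 0.13 ± 0.13, 0.06 ± 0.21 and 0.08 ± 0.16. Without CON-BDEV replicate 1, Chac1 gave 0.54 (limma adjusted p = 0.000644) and Sesn2 gave 0.47 (adjusted p = 0.00117). In that fit 5 of 39 genes passed as higher (Chac1, Ddit4, Sesn2, Slc1a4 and Slc38a2), where 2.08% of all genes did. Another 2 passed as lower (Slc3a2 and Wars), where 321 of all 11323 genes did. The library left out was CON-BDEV replicate 1. That library was the lowest of its group for 37 of 39 genes, so leaving it out raises the group by construction, and these values show its weight and not a second result.

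The amino acid transporters had fold changes below 0 for 5 of 8 genes in each comparison with Vehicle. None passed the limma test. The unadjusted p was under 0.05 for 2 of 8 in SE-BDEV (14.8% of all genes) and 3 of 8 in CON-BDEV (19.1%). Slc3a2 encodes the heavy chain that carries several transporters to the plasma membrane (chromosome 19, 8781372 to 8797859). It had 192, 238, 181 and 214 FPKM in SE-BDEV replicates 1 to 4, 189.7, 229, 208 and 211 FPKM in CON-BDEV, and 239.9, 233, 239.7 and 247 FPKM in Vehicle. Every CON-BDEV library lay below every Vehicle library, while SE-BDEV replicate 2 overlapped with Vehicle. Slc7a3, a carrier of cationic amino acids (chromosome X, 98274549 to 98280744), had 32.7, 44.8, 28.3 and 37.9 FPKM in SE-BDEV, 29.7, 42.9, 37.5 and 36.6 FPKM in CON-BDEV, and 44.6, 43.3, 43.7 and 43.3 FPKM in Vehicle. Slc7a11, the cystine and glutamate exchanger (chromosome 3, 50168858 to 50247535), had 4.01, 9.82, 3.93 and 6.14 FPKM in SE-BDEV, 3.8, 8.24, 7.51 and 6.99 FPKM in CON-BDEV, and 8.02, 5.89, 5.87 and 6.87 FPKM in Vehicle. Its groups overlapped in both comparisons.

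Of the other transporters, the large neutral amino acid carrier gene Slc7a5 ranged from 216 to 304 FPKM in SE-BDEV, 234 to 283 FPKM in CON-BDEV and 279.8 to 290.0 FPKM in Vehicle. The neutral amino acid carrier genes Slc1a4 and Slc1a5 reached 72.8 and 167 FPKM in SE-BDEV replicate 2, above all Vehicle libraries. In the other 3 SE-BDEV libraries they lay below all of them, at 38.9 to 45.2 FPKM for Slc1a4 (Vehicle 45.6 to 46.2 FPKM) and 114 to 138 FPKM for Slc1a5 (Vehicle 139.5 to 148 FPKM). The cationic carrier gene Slc7a1 had 81.6 FPKM in SE-BDEV replicate 2 and 58.1 to 62.1 FPKM in the other 3, against 61.6 to 63.6 FPKM in Vehicle. Slc38a2, a carrier that amino acid shortage is known to induce, was at 112 to 134 FPKM in all vesicle-treated libraries and 115 to 119 FPKM in Vehicle. In SE-BDEV against Vehicle, Slc3a2 gave −0.23 ± 0.07 (limma adjusted p = 0.179) and Slc7a3 gave −0.30 ± 0.11 (adjusted p = 0.234). In CON-BDEV against Vehicle they gave −0.20 ± 0.05 (limma adjusted p = 0.0548) and −0.26 ± 0.08 (adjusted p = 0.125).

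All 5 synthesis genes had fold changes below 0 in both comparisons with Vehicle, with medians of −0.17 in SE-BDEV and −0.14 in CON-BDEV. None passed the limma test. The unadjusted p was under 0.05 for 2 of 5 in SE-BDEV (14.8% of all genes) and 3 of 5 in CON-BDEV (19.1%). Asns, asparagine synthetase, is a standard readout of ATF4 activity (chromosome 6, 7625171 to 7643182). It had 407, 491, 385 and 456 FPKM in SE-BDEV replicates 1 to 4, 404, 473, 449.9 and 444 FPKM in CON-BDEV, and 497, 475, 485 and 497 FPKM in Vehicle. All 4 CON-BDEV libraries were below Vehicle, as were 3 of 4 SE-BDEV libraries. Pycr1, which makes proline in the last step of its pathway (chromosome 11, 120497026 to 120504984), had 5.85, 7.37, 4.86 and 6.19 FPKM in SE-BDEV, 5.09, 7.06, 6.05 and 6.28 FPKM in CON-BDEV, and 7.36, 7.1, 7.15 and 7.08 FPKM in Vehicle. Cth, cystathionine gamma-lyase, releases cysteine from cystathionine (chromosome 3, 157557212 to 157588027). Its values were 26.2, 59.4, 17.9 and 34.3 FPKM in SE-BDEV, 24.2, 46.6, 38 and 29.7 FPKM in CON-BDEV, and 48.2, 42.2, 43.7 and 43.7 FPKM in Vehicle. Cth was low in 3 of 4 libraries of each vesicle group and at or above part of the Vehicle range in replicate 2.

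Asns gave −0.17 ± 0.07 (limma adjusted p = 0.242) in SE-BDEV against Vehicle and −0.14 ± 0.04 (adjusted p = 0.0971) in CON-BDEV against Vehicle. Cth had the lowest fold change of all 39 genes in both, at −0.49 ± 0.27 (limma adjusted p = 0.431) and −0.39 ± 0.15 (adjusted p = 0.2). In SE-BDEV it moved to −0.23 without replicate 3 and to −0.79 without replicate 2 (limma adjusted p = 0.0374). In CON-BDEV it moved to −0.24 without replicate 1, and without replicate 2 it passed at −0.54 (limma adjusted p = 0.0351). Aldh18a1, which starts proline synthesis from glutamate, ranged from 69.2 to 97.8 FPKM and Cbs, which feeds Cth, from 9.59 to 12.5 FPKM over the vesicle-treated libraries. In Vehicle they ranged from 84.5 to 86.4 FPKM and from 11.1 to 11.7 FPKM.

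**Figure D3:**
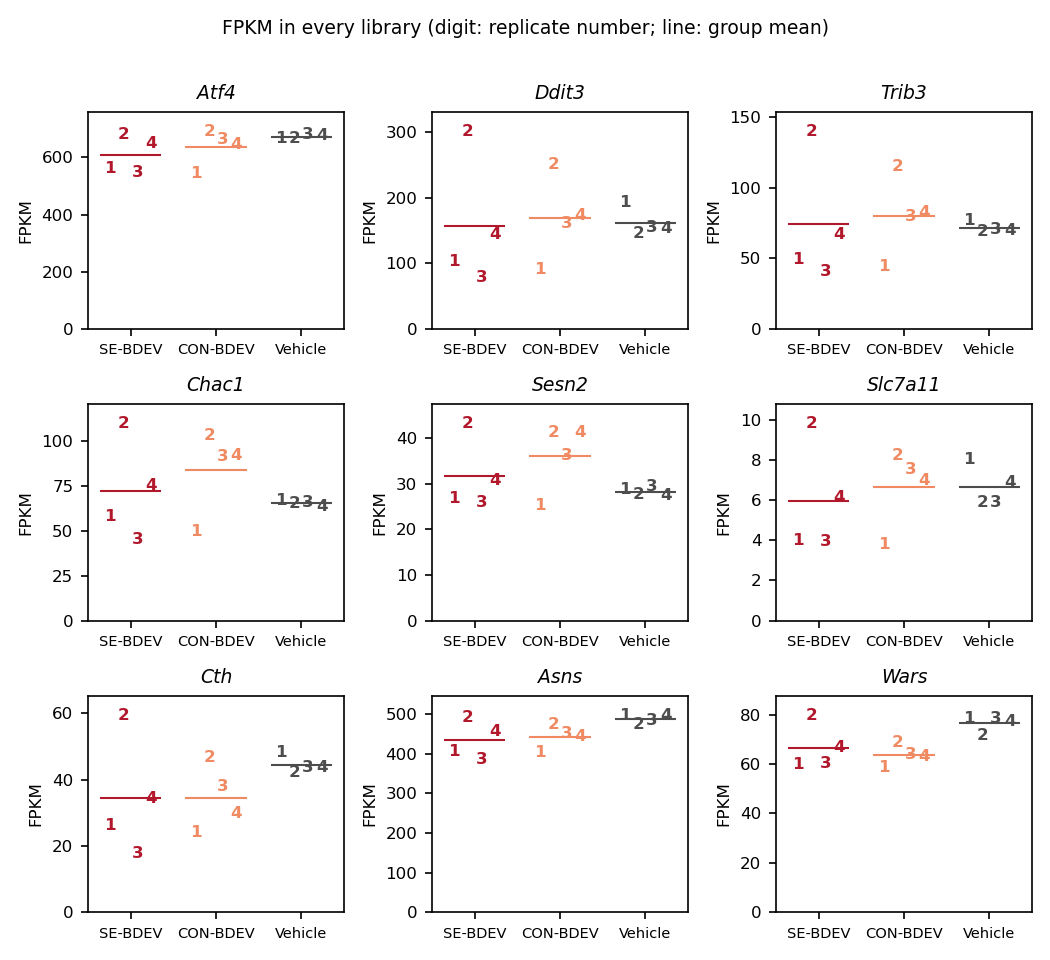
FPKM (vertical axes, from 0) in each library for selected genes, with SE-BDEV, CON-BDEV and Vehicle from left to right, digits for replicate numbers and lines at group means. Ddit3 reached 301 FPKM in SE-BDEV replicate 2 and 251 FPKM in CON-BDEV replicate 2 around Vehicle values of 145 to 192 FPKM.

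The tRNA synthetases load amino acids onto tRNAs, and 12 of 13 had fold changes below 0 in SE-BDEV and 11 of 13 in CON-BDEV against Vehicle, with medians of −0.05 and −0.06. Wars, which charges tryptophan, was the only one of the 39 genes to pass the test in any comparison (chromosome 12, 110098240 to 110132384). It had 59.9, 79.7, 60.3 and 66.6 FPKM in SE-BDEV replicates 1 to 4, 58.7, 68.7, 64 and 63.1 FPKM in CON-BDEV, and 78.3, 71.5, 78.5 and 77.3 FPKM in Vehicle. All CON-BDEV libraries lay below all Vehicle libraries, whereas SE-BDEV replicate 2 lay above them. Wars fell by 0.26 ± 0.05 in CON-BDEV against Vehicle (limma adjusted p = 0.0166), with means of 63.6 ± 4.13 and 76.4 ± 3.3 FPKM (SD, n = 4 each). In SE-BDEV against Vehicle it gave −0.20 ± 0.08 (limma adjusted p = 0.267). This call did not survive leaving out CON-BDEV replicate 4 (limma adjusted p = 0.0535) or Vehicle replicate 1, 3 or 4 (0.0641, 0.0631 and 0.0544). It was also lost with a replicate block (limma adjusted p = 0.0689), without a filter on low genes (0.0563) and in the fit of all 12 libraries (0.122).

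Sars, for serine (chromosome 3, 108227782 to 108248177), had 140.1, 166, 130.0 and 149 FPKM in SE-BDEV, 137, 165, 150.5 and 149.7 FPKM in CON-BDEV, and 165, 166, 168 and 168 FPKM in Vehicle. Gars, for glycine (chromosome 6, 54987995 to 55029498), had 399, 481, 364 and 436 FPKM in SE-BDEV, 400.3, 457, 428 and 426 FPKM in CON-BDEV, and 475, 467, 469 and 463 FPKM in Vehicle. For both genes every CON-BDEV library was below every Vehicle library. Sars gave −0.19 ± 0.06 (limma adjusted p = 0.187) in SE-BDEV and −0.15 ± 0.05 (adjusted p = 0.107) in CON-BDEV, and Gars −0.16 ± 0.07 (limma adjusted p = 0.302) and −0.13 ± 0.04 (adjusted p = 0.0739). The fold changes of the other 10 synthetases lay between −0.12 (Eprs, for glutamate and proline) and 0.03 (Iars, for isoleucine) in SE-BDEV, and between −0.14 (Eprs) and 0.03 (Cars, for cysteine) in CON-BDEV. Aars, for alanine, gave −0.00 in both. Hars, at 70.6 to 73.4 FPKM in SE-BDEV, 70.1 to 72.9 FPKM in CON-BDEV and 69.9 to 74.4 FPKM in Vehicle, stayed within a 1.04-fold range in each vesicle group, and Mars, for methionine, within 1.05-fold in SE-BDEV and 1.03-fold in CON-BDEV.

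In all, SE-BDEV against Vehicle gave 0 of 39 calls, where 0.919% of all 11311 genes passed (104 genes, limma adjusted p under 0.05). At an unadjusted p under 0.05 there were 8 of 39, where 14.8% of all genes passed, and 29 of 39 fold changes were below 0, where 45.4% of all genes were. The groups did not separate for any of the 39 genes, where 10.2% of all genes had SE-BDEV and Vehicle values that did not overlap. CON-BDEV against Vehicle gave 1 of 39 calls, where 2.84% of 11320 genes passed (321 genes). There were 13 of 39 at an unadjusted p under 0.05, where 19.1% of all genes passed, and 26 of 39 fold changes were below 0, where 48% were. Here 8 of 39 genes (20.5%) had all 4 CON-BDEV libraries below all 4 Vehicle libraries, namely Slc7a3, Slc3a2, Asns, Pycr1, Sars, Gars, Wars and Mars. Among all genes 6.24% separated in that direction and 11.9% in either. None of the 39 separated upward. The comparisons share the Vehicle libraries, so their values are not independent of each other. Within a comparison the 39 genes moved together between libraries, so the signs of their fold changes are not independent either.

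**Figure D4:**
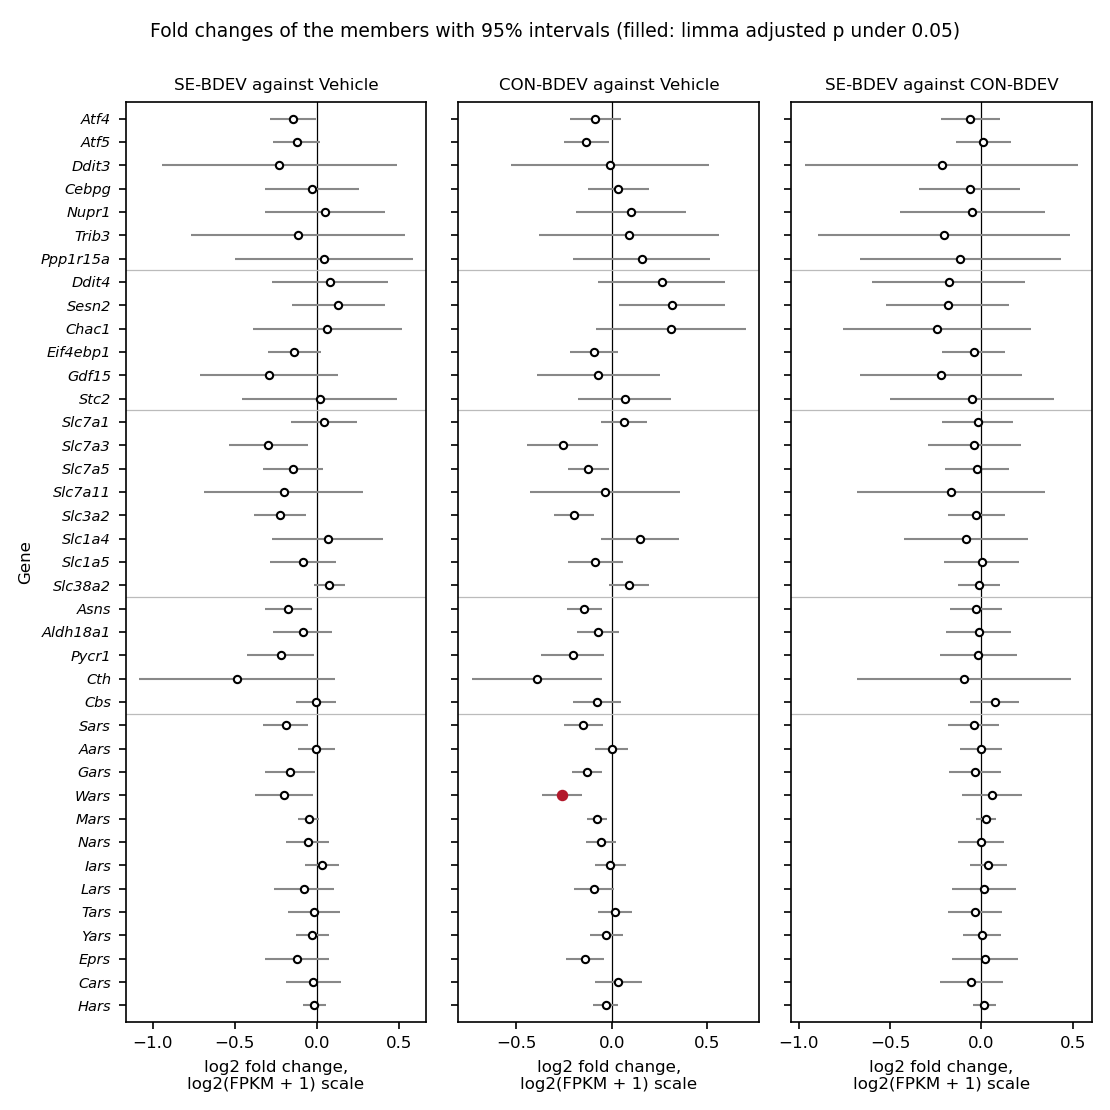
Log2 fold change with its 95% interval (horizontal axes, log2(FPKM + 1) scale) for each of the 39 genes (vertical axis) in the 3 comparisons, filled where limma's adjusted p was under 0.05. Only Wars in CON-BDEV against Vehicle is filled, at −0.26, and the intervals of Ddit3, Trib3 and Cth are the widest.

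How far these counts rest on the replicate 2 libraries was measured by leaving each out. Without SE-BDEV replicate 2, 8 of 39 genes were called lower in SE-BDEV against Vehicle (Atf5, Slc7a3, Slc3a2, Asns, Cth, Sars, Gars and Wars), where 1.74% of all genes were. Without CON-BDEV replicate 2, 8 of 39 were called lower in CON-BDEV against Vehicle (Slc7a3, Slc3a2, Asns, Cth, Sars, Gars, Wars and Eprs), where 2.5% of all genes were. Leaving out a library because its values are high lowers the group, so these counts show the weight of single libraries and not a second result.

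SE-BDEV against CON-BDEV addressed whether vesicles of the SE group act differently from those of the CON group. None of the 39 genes passed, and neither did any of the 11312 genes (0% called). At an unadjusted p under 0.05 there were 0 of 39, where 2.62% of all genes passed. No gene of the 39 separated the groups, where 1.39% of all genes did. Of the 39 fold changes 29 were below 0, where 45.7% of all genes were. Their median was −0.03, and it turned to 0.03 without SE-BDEV replicate 3 and to 0.02 without CON-BDEV replicate 2. The 39 genes moved together between libraries, so their signs are not independent of each other. Fold changes lay between −0.24 (Chac1, 95% interval −0.76 to 0.27) and 0.07 (Cbs, −0.06 to 0.21). The interval was narrow for Hars (−0.05 to 0.08), Asns (−0.17 to 0.11) and Wars (−0.11 to 0.22), and wide for Ddit3 (−0.97 to 0.53) and Trib3 (−0.90 to 0.49). This fit also took its spread from the Vehicle libraries. The median SD of the 39 genes was 0.0334 there, against 0.207 in SE-BDEV and 0.131 in CON-BDEV. These intervals may therefore be too narrow for a comparison of the vesicle groups. A fit of the 8 BDEV libraries alone also called 0 of 39. Differences inside these intervals could not be told from 0, and a p above the threshold does not show that the vesicle groups act alike.

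The authors' deposited table, made with Cuffdiff, marked 2 of 39 genes (5.13%) as significant in SE-BDEV against Vehicle, where it marked 1.17% of 11928 genes. Both were lower in the authors' deposited table: Cth at a log2 fold change of −0.37 (q-value 0.006855) and Slc7a3 at −0.28 (q-value 0.012689). For CON-BDEV against Vehicle the authors' deposited table marked 6 of 39 (15.4%), where it marked 1.8% of 11912 genes. Chac1 (0.36), Sesn2 (0.35) and Ddit4 (0.30) were higher there, each with a q-value of 0.005047 in the authors' deposited table. Cth (−0.36, q-value 0.005047), Slc7a3 (−0.25, q-value 0.015777) and Wars (−0.26, q-value 0.015777) were lower in the authors' deposited table. Of the 8 marks, limma on the library values called 1, Wars in CON-BDEV.

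Neighbouring pathways were taken from lists of other genes. The serine and one-carbon genes that ATF4 also drives had 6 of 6 fold changes below 0 in each comparison with Vehicle, with medians of −0.22 in SE-BDEV and −0.21 in CON-BDEV, where the medians of all genes were 0.01 and 0.00. In CON-BDEV against Vehicle 3 of the 6 passed as lower, where 206 of all 11320 genes did. Phgdh, the first enzyme of serine synthesis, fell by 0.22 ± 0.05 (limma adjusted p = 0.0317). Psat1, the next enzyme, fell by 0.14 ± 0.03 (limma adjusted p = 0.0264). Shmt2, which makes glycine from serine in mitochondria, fell by 0.25 ± 0.04 (limma adjusted p = 0.0156). The calls held under 6, 7 and 9 of 15 alternatives for Phgdh, Psat1 and Shmt2. With a replicate block none of the 3 passed limma, at adjusted p of 0.088, 0.0831 and 0.0526. In SE-BDEV 0 of 6 passed the limma test, and 3 of 6 (14.8% of all genes) had an unadjusted p under 0.05. Their median difference from the Vehicle mean was −0.27, 0.04, −0.39 and −0.18 in SE-BDEV replicates 1 to 4, and −0.33, −0.07, −0.19 and −0.21 in CON-BDEV replicates 1 to 4. Replicate 2 was again the highest library of each vesicle group, and SE-BDEV replicate 3 and CON-BDEV replicate 1 the lowest.

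Calls were few in the other lists. Their counts at an unadjusted p under 0.05 stand beside 14.8% of all genes in SE-BDEV and 19.1% in CON-BDEV. None of 15 genes for eIF2 kinases, eIF2, eIF2B and GCN2 regulators passed in either comparison, with medians of −0.00 in SE-BDEV and −0.03 in CON-BDEV, and with 1 and 4 genes at an unadjusted p under 0.05. Their library medians lay between −0.05 and 0.03. None of 17 mitochondrial tRNA synthetases (medians 0.01 and −0.00, with 2 and 4 at an unadjusted p under 0.05) passed limma either, with library medians up to 0.11 in SE-BDEV replicate 2. Nor did any of 10 other cytosolic synthetases and scaffold genes (medians −0.02 and −0.03, with 1 and 2 at an unadjusted p under 0.05). Their library medians were −0.01, −0.05, −0.05 and 0.02 in SE-BDEV replicates 1 to 4, and 0.00, −0.07, −0.03 and −0.04 in CON-BDEV replicates 1 to 4. Unlike for the 13 synthetases described above, replicate 2 was not the highest library of either vesicle group for this list. Of the other amino acid transporters 1 of 11 passed in CON-BDEV against Vehicle, where 2.84% of all genes passed: Slc36a1, a lysosomal proton-coupled carrier, rose by 0.26 ± 0.06 (limma adjusted p = 0.0408), with means of 45.43 and 37.61 FPKM. This call held under 5 of 15 alternatives and was lost with the replicate block (limma adjusted p = 0.0799). The list's median difference from the Vehicle mean was highest in replicate 2 of each vesicle group, at 0.10 in both. In SE-BDEV 0 of 12 passed limma and 1 of 12 had an unadjusted p under 0.05. Of 20 amino acid sensing genes upstream of mTORC1, 1 passed in CON-BDEV against Vehicle, again where 2.84% of all genes passed: Rragd, a Rag GTPase, rose by 0.25 ± 0.04 (limma adjusted p = 0.00651), with means of 28.04 and 23.36 FPKM. The Rragd call held under all 15 alternatives. In SE-BDEV 0 of 20 passed limma and 2 of 20 had an unadjusted p under 0.05.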

How the data were processed

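Libraries were made from polyA RNA with a directional kit, per the labels' protocols. The authors aligned reads to mm9 with TopHat2 and quantified them with Cuffdiff, per the submitters' processing notes. Not given in the sources used here are versions, annotation, read filters and how strand was treated in counting. The deposited library values are FPKM per gene, per the file headers, in one table for SE-BDEV and Vehicle and another for CON-BDEV and Vehicle. The deposited comparison tables hold, for every gene, the authors' log2 fold change with its p-value and q-value. Vehicle columns of the 2 tables differed by a factor of its own for each library, at most 0.0336% from 1. Their mean was used where all 12 libraries entered. Starts in the deposited loci were read as counted from 0 and are given counted from 1.

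Values were transformed as log2(FPKM + 1), and genes were kept if they averaged 1 FPKM or more in the libraries of that fit. limma 3.58.1 in R 4.3.3 was run with a mean-variance trend, each vesicle group against Vehicle within its own table and SE-BDEV against CON-BDEV with all 12 libraries in the fit. P-values were adjusted by Benjamini-Hochberg over all genes tested, with 0.05 as threshold. Adding 1 FPKM understates fold changes of low genes. Depth was estimated from the smallest FPKM steps, and cannot be read from the tables directly. The tests were run on simulated data with known fold changes first. Sequences came from RefSeq promoter windows of GRCm38.p6 matched by symbol or synonym, with TGATGNAA searched on both strands. Figures were drawn with matplotlib 3.10.9.

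Values in every library are given for each gene past the threshold, for the 3 genes of each role group with the largest fold change against Vehicle in size, and for Atf4, Ddit3, Trib3, Asns, Chac1, Sesn2, Slc7a11 and Sars. The genes, the lists and this rule were chosen with earlier results of these data known. Alternatives were the pseudocount, the filter, scaling by the median, a replicate block, library weights, a fit of all 12 libraries and leaving out each library. For SE-BDEV against CON-BDEV, a fit of the 8 BDEV libraries took the place of the fit of all 12.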

Additional observations from a re-analysis of the deposited data

Results flagged for a closer look

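Of 117 combinations of a gene and a group of 4 libraries, 2 had a single library far from the others, measured as its gap to the nearest library over the range of the group against Dixon's 95% critical value, and chance alone gives about 1 in 20. Nupr1 was at 173 FPKM in Vehicle replicate 3, against 183 to 185 FPKM in the other Vehicle libraries. Iars was at 83.7 FPKM in Vehicle replicate 1, against 88.5 to 89 FPKM in the others.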

How the results depend on the processing

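The count of genes called lower in SE-BDEV against Vehicle was 0 and became 4 with library weights (Sars, Slc3a2, Slc7a3 and Wars) and 0 to 8 when leaving out each library, with 8 without SE-BDEV replicate 2. In CON-BDEV against Vehicle the count of 1 (Wars) became 0 without a filter, with a replicate block and in the fit of all 12 libraries, 2 with a filter of 5 FPKM and with median scaling, 4 with library weights, and 0 to 8 when leaving out each library. The count called higher there was 0 and ranged from 0 to 5, with 5 without CON-BDEV replicate 1. Calls over all genes moved too. Library weights raised those lower from 71 to 145 of 11311 genes in SE-BDEV and from 206 to 334 of 11320 in CON-BDEV. In CON-BDEV, 225 of 9077 genes were lower with a filter of 5 FPKM and 208 of 11320 with median scaling. Genes called lower were 197 of 11299 without SE-BDEV replicate 2 and 283 of 11304 without CON-BDEV replicate 2. Without CON-BDEV replicate 1, 235 of 11323 were called higher. For Wars in CON-BDEV the adjusted p was 0.0563 without a filter, 0.0689 with the replicate block and 0.122 in the fit of all 12 libraries. The replicate block also lowered the calls over all genes to 48, against 104 without it, in SE-BDEV and to 135, against 321, in CON-BDEV. Deviations of libraries with the same number correlated at 0.196 and 0.298 for numbers 1 and 2 and at −0.074 and −0.123 for numbers 3 and 4 of SE-BDEV with CON-BDEV, and at −0.102 to 0.036 for a vesicle group with Vehicle. Not every library correlated best with its own number, so the numbers were not taken as pairs.

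Fold changes turned sign as follows. In SE-BDEV against Vehicle, library weights gave −0.1101 for Ppp1r15a and −0.0124 for Chac1. Leaving out each library gave −0.264 to 0.2099 for Ppp1r15a, −0.1625 to 0.2579 for Chac1, −0.4757 to 0.1115 for Trib3, −0.0253 to 0.2116 for Sesn2 and −0.6075 to 0.0331 for Ddit3. In CON-BDEV against Vehicle, library weights gave 0.0184 for Ddit3 and 0.0425 for Slc7a11. Leaving out each library gave −0.2302 to 0.2565 for Ddit3, −0.1446 to 0.1699 for Slc7a11, −0.1821 to 0.0967 for Gdf15, −0.1077 to 0.3472 for Trib3 and −0.032 to 0.2988 for Ppp1r15a. In SE-BDEV against CON-BDEV it gave −0.0993 to 0.0324 for Slc3a2, −0.03 to 0.1055 for Wars, −0.5965 to 0.044 for Ddit3, −0.5647 to 0.0225 for Trib3, −0.4203 to 0.0739 for Ppp1r15a, −0.1477 to 0.0668 for Slc7a3, −0.0907 to 0.0257 for Asns, −0.101 to 0.0706 for Pycr1, −0.3969 to 0.1615 for Cth, −0.1043 to 0.0136 for Sars and −0.1002 to 0.0334 for Gars. Of the values of single genes under all alternatives, 649 kept direction and side of the threshold, 25 moved past it, 7 moved back and 39 turned sign. The cause was not tested, except that leaving out a library leaves fewer libraries to test. Counts per gene are not given by FPKM, so depth limits low genes such as Pycr1 and Slc7a11 most.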
